A study of Homo sapiens with 6 samples.

Results

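The HSP70 chaperones described here are 10 human genes, taken by name from a table of 58735 genes measured in 6 RNA sequencing libraries: HSPA1A, HSPA1B, HSPA1L, HSPA2, HSPA4, HSPA5, HSPA6, HSPA8, HSPA9 and HSPA13. All 10 were found, each as 1 row. The libraries were made from total RNA of U937, an established human myeloid leukaemia line that the labels describe as AML cells. The group of 3 wild type libraries is labelled with that name and no agent, and the group of 3 shENO1 libraries is read as cells with a short hairpin RNA against ENO1, the glycolytic enzyme enolase 1. The labels name no control hairpin, hairpin sequence, clone or time, so a response to ENO1 loss and a response to hairpin delivery or selection cannot be told apart. They also do not say whether the replicates were separate cultures, so the p-values rest on the spread among the libraries at hand, and that spread may be technical. The study's stated aim was to examine knockdown of ENO1 in this line.

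HSP70 proteins are ATP-driven chaperones that clamp onto exposed hydrophobic stretches of unfolded proteins. J-domain proteins bring them clients and trigger ATP hydrolysis, and nucleotide exchange factors replace ADP with ATP and so release the client. HSPA1A, HSPA1B and HSPA6 are the stress-inducible cytosolic forms, switched on when heat shock factor 1 (HSF1) binds repeats of GAA and its complement TTC. HSPA8 is the constitutive cytosolic form, HSPA5 (BiP) serves the endoplasmic reticulum (ER), and HSPA9 (mortalin) serves the mitochondrial matrix.

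The 6 libraries held 14216739 to 17499636 reads in genes, and expression is given as FPKM, fragments per kilobase of gene scaled to library size, which corrects for gene length. ENO1 itself had 526 to 561 FPKM in wild type and 82.7 to 111 FPKM in shENO1, so its level followed the labels. Genes whose mean reached 1 FPKM were tested with limma on log2(FPKM + 1), with Benjamini-Hochberg adjustment over the 12809 genes that passed, and a gene was called at an adjusted p under 0.05. A log2 fold change on this scale understates the change of low genes. Of all tested genes 6.46% were called lower and 7.86% higher in shENO1. Reads from mitochondrial genes made up 3.38% to 5.19% of the wild type libraries and 5.72% to 7.42% of the shENO1 libraries. Replicate 3 of each group stood at opposite ends of the second principal component, which held 27.3% of the variance. In bulk RNA, fewer cells of a type and less RNA per cell cannot be told apart. Of 10 monocytic and myeloid markers, 9 had a mean of at least 1 FPKM, and the 10 summed to 653 to 749 FPKM in wild type and 825 to 1195 FPKM in shENO1. Most of that difference was LYZ, at a mean of 384 FPKM in wild type and 634 FPKM in shENO1 (limma adjusted p = 0.107). Without LYZ the sums overlapped, at 303 to 343 and 312 to 357 FPKM. CD4, PTPRC, CD33, CSF3R and MPO had lower means in shENO1, and CEBPA, SPI1, ITGAM and CSF1R had higher means. CSF1R was called higher, at a mean of 0.941 FPKM in wild type and 2.28 FPKM in shENO1 (limma adjusted p = 0.0245). CEBPA was higher in every shENO1 library, at means of 68.3 and 97.9 FPKM (limma adjusted p = 0.0845). The erythroid markers were at 0 in every library, T cell markers summed to at most 0.113 FPKM and epithelial markers to at most 0.373 FPKM. Fibroblast markers summed to 0.80 to 1.64 FPKM over all libraries, and B cell markers to 9.68 to 11.4 FPKM in wild type and 7.61 to 11.2 FPKM in shENO1, with MS4A1 at 0. Within the B cell list PAX5 rose, with 1.26 to 1.75 FPKM in wild type and 3.33 to 3.71 FPKM in shENO1 (limma adjusted p = 0.00951). CD79A was lower in every shENO1 library, at 2.63 to 5.41 FPKM against 6.13 to 8.30 FPKM (limma adjusted p = 0.0816). The part of these differences in the results was not tested.

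HSP70 transcripts were lower in shENO1 for most of the well expressed genes. Of the 10 genes, 8 passed the filter on low values, and among these 5 were lower (HSPA1A, HSPA1B, HSPA6, HSPA8 and HSPA5), 1 was higher (HSPA9) and 2 did not pass the test (HSPA4 and HSPA13). Their median log2 fold change was -1.32, against -0.02 over all tested genes. The 5 genes called lower did not overlap between groups, which held in that direction for 17.9% of tested genes, and neither did HSPA9, as for 19.6% in the other direction. The ratio of mean FPKM in wild type to that in shENO1 was at least 2 for 4 of the genes called lower (6.19% of tested genes). It was at least 10 for HSPA1A, HSPA1B and HSPA6 (0.476%). The family was chosen with earlier results of these data known, so these shares are a description and not a test. HSPA1L and HSPA2 stayed under the filter and were not part of that fit. The plot of the 10 genes by library shows the levels behind these calls.

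**Figure D1:**
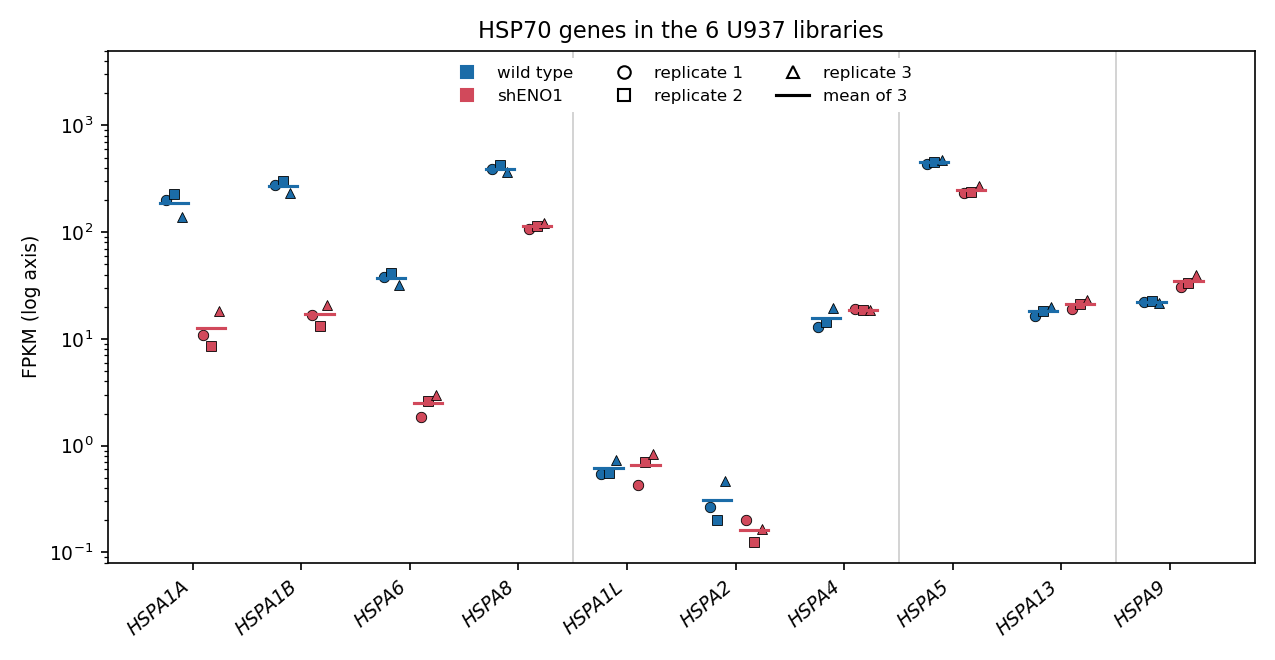
FPKM (log axis) of the 10 HSP70 genes in each of the 6 libraries, wild type in blue and shENO1 in red, with a symbol for each replicate number and a bar for the mean of 3. The cytosolic HSPA1A, HSPA1B, HSPA6 and HSPA8 stand at left, the ER gene HSPA5 and HSPA13 at right and the mitochondrial HSPA9 at the far right; HSPA1A, HSPA1B and HSPA6 show the widest gap between groups.

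The sequences just upstream of the starts of the genes that changed most are shown because these genes are known targets of HSF1 or, for HSPA5, of the ER stress response. They are the 250 bases before each RefSeq start (GRCh38.p14), written 5′ to 3′ on the gene's strand. Capitals mark exact matches to the heat shock element units GAANNTTC or TTCNNGAA, to a longer element of 3 alternating TTC and GAA units with 2 free bases (NN) between neighbours, starting with either unit, or, in HSPA5, to the ER stress element, CCAAT and CCACG with 9 free bases between them.
HSPA1A, chr6:31815293-31815542, plus strand: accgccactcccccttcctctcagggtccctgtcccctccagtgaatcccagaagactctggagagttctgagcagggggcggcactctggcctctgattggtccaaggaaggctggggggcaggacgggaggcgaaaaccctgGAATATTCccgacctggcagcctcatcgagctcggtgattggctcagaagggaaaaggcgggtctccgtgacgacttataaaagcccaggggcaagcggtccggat
HSPA1B, chr6:31827488-31827737, plus strand: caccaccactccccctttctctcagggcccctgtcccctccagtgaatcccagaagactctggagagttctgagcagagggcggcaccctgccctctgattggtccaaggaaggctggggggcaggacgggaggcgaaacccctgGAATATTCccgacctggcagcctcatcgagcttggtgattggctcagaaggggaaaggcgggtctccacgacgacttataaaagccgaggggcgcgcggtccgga
HSPA6, chr1:161524290-161524539, plus strand: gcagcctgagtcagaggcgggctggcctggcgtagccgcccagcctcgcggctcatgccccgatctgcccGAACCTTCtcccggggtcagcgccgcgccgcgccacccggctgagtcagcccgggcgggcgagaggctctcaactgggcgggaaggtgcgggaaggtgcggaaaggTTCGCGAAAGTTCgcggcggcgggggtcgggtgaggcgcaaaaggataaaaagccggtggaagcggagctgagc
HSPA8, chr11:123062137-123062386, minus strand: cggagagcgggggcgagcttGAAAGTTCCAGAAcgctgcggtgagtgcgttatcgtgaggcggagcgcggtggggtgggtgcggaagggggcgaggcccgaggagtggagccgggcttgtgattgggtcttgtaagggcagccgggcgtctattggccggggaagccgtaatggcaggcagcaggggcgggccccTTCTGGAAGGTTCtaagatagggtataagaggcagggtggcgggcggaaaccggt
HSPA5, chr9:125241344-125241593, minus strand: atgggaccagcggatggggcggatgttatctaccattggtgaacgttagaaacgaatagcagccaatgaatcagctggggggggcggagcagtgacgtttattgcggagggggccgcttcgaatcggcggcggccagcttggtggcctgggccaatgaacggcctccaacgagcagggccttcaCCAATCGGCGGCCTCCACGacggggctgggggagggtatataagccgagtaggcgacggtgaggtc

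All 10 genes matched the RefSeq promoter table, and motifs were searched on both strands. GAANNTTC stood in the windows of HSPA1A, HSPA1B, HSPA1L, HSPA6 and HSPA8 and in 5.78% of the 35116 windows of the table. TTCNNGAA stood in HSPA6 and HSPA8 and in 6.62% of windows. The longer element of 3 units, which contains both of the shorter motifs, stood in HSPA6 and in HSPA8, there in 2 places, and in 0.441% of windows. The ER stress element stood in HSPA5 and in 0.0740% of windows. The match of HSPA1L is the same stretch of chromosome 6 as that of HSPA1A, since these genes lie 398 bases apart on opposite strands. HSPA2, HSPA4, HSPA9 and HSPA13 had no match to these motifs in this window. RefSeq starts can differ from the gene bounds used for expression. The windows of HSPA2, HSPA8, HSPA9 and HSPA13 lie wholly inside those bounds, and those of HSPA1A, HSPA1B and HSPA4 do so in part. Bases before any start further upstream were thus not all searched. The windows of HSPA1A and HSPA1B were identical at 235 of 251 aligned positions (93.6%). A match describes letters and not a site in use.

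**Figure D2:**
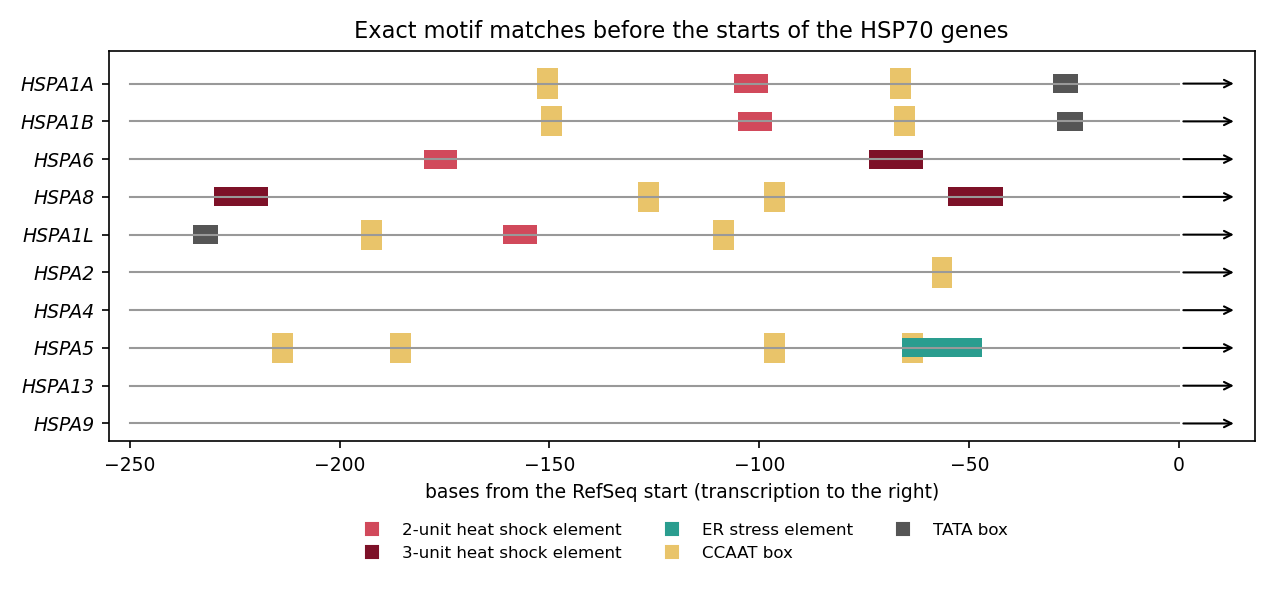
Positions of exact motif matches in the 250 bases before the RefSeq start of each HSP70 gene, with distance from the start in bases on the x axis. Heat shock elements appear in HSPA1A, HSPA1B, HSPA1L, HSPA6 and HSPA8, and the ER stress element appears in HSPA5.

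The stress-inducible cytosolic genes had the largest changes of the family. HSPA1A (chr6:31815464-31817946, plus strand, a single exon) had 200, 229 and 137 FPKM in wild type and 10.9, 8.61 and 18.1 FPKM in shENO1. HSPA1B, its near-identical copy (chr6:31827735-31830255, plus strand, a single exon), had 278, 302 and 231 FPKM in wild type and 16.7, 13.3 and 20.8 FPKM in shENO1. Every shENO1 library was far below every wild type library for both genes, and replicate 3 was the lowest of the wild type group and the highest of the shENO1 group. The means were 189 ± 47.0 against 12.5 ± 4.94 FPKM (SD, n = 3) for HSPA1A, a 15.1-fold difference, and 270 ± 36.2 against 16.9 ± 3.75 FPKM (SD, n = 3) for HSPA1B, a 16.0-fold difference. On the log2 scale HSPA1A fell by 3.84 (SE 0.29, limma adjusted p = 0.00347) and HSPA1B fell by 3.93 (SE 0.18, limma adjusted p = 0.000651).

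HSPA1A and HSPA1B cannot be separated with certainty. Their coding sequences were identical at 1919 of 1923 aligned bases (99.8%), and 69.9% of the 100-base windows of HSPA1A transcripts also occurred in HSPA1B. Their summed level was 478, 532 and 368 FPKM in wild type and 27.6, 21.9 and 38.9 FPKM in shENO1. The sum thus fell 15.6-fold without overlap of the groups, with a log2 fold change of -3.94 (SE 0.23, 95% interval -4.50 to -3.38, limma adjusted p = 0.00169). HSPA1A made up 40.8% ± 3.07 of the sum in wild type and 41.7% ± 4.12 in shENO1 (SD, n = 3), a difference within the spread (exact permutation test, two-sided p = 0.8).

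HSPA6, known as HSP70B′ and described as nearly silent in unstressed cells, lies on chromosome 1 (chr1:161524540-161526910, plus strand, a single exon). It had 38.1, 41.2 and 31.9 FPKM in wild type and 1.87, 2.64 and 2.98 FPKM in shENO1, so the groups stood far apart. These values rest on 1048 to 1528 reads per wild type library and 69 to 119 reads per shENO1 library. The means of 37.1 ± 4.74 and 2.49 ± 0.567 FPKM (SD, n = 3) differed 14.9-fold, with a log2 fold change of -3.45 (SE 0.15, limma adjusted p = 0.000651). HSPA6 was 0.0813 of the summed HSPA1A and HSPA1B level in wild type and 0.0882 in shENO1, and these ratios overlapped between groups (exact permutation test, two-sided p = 1). HSPA7, a pseudogene of HSPA6, shares 27.6% of the 100-base windows of HSPA6, so reads may be split between them. It had a mean of 4.93 FPKM in wild type and 2.41 FPKM in shENO1, a log2 fold change of -0.80 (limma adjusted p = 0.0269). The ratio of HSPA7 to HSPA6 had a mean of 0.132 in wild type and 1.03 in shENO1, without overlap (exact permutation test, two-sided p = 0.1, the smallest possible). The HSPA7 call was lost when any library other than wild type replicate 3 was left out (adjusted p = 0.0513 to 0.106) and without the filter on low values (0.0813).

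HSPA8, the constitutive cytosolic HSP70 that also uncoats clathrin vesicles, lies on chromosome 11 (chr11:123057489-123063230, minus strand). It had 392, 421 and 362 FPKM in wild type and 108, 114 and 122 FPKM in shENO1. All shENO1 libraries were below all wild type libraries, and the libraries within a group lay close together. The means of 392 ± 29.7 and 115 ± 7.27 FPKM (SD, n = 3) differed 3.42-fold, with a log2 fold change of -1.76 (SE 0.12, 95% interval -2.04 to -1.48, limma adjusted p = 0.00212). None of the 100-base windows of its longest coding transcript occurred in another gene. That transcript has 2463 bases, against 4849 for the joined exons of HSPA8, and the other exon bases were not searched. The 17 pseudogene rows of HSPA8 summed to 0.56 to 2.09 FPKM per library.

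The inducible genes stood lower relative to HSPA8 in every shENO1 library. The summed HSPA1A and HSPA1B level was 1.22, 1.26 and 1.02 times that of HSPA8 in the wild type libraries and 0.256, 0.192 and 0.318 times in the shENO1 libraries. The ratio of HSPA6 to HSPA8 had a mean of 0.0944 in wild type and 0.0216 in shENO1. Neither ratio overlapped between groups, with differences of -2.21 and -2.14 on the log2 scale. The exact two-sided permutation p was 0.1 for each, the smallest that 3 against 3 libraries allow, and 0.117 after adjustment over the 7 ratios compared.

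The table lists a small nucleolar RNA locus, SNORD14E, within HSPA8 (chr11:123058077-123058161). Small nucleolar RNAs of this kind guide chemical modification of ribosomal RNA and are cut from introns of their host genes. The locus lies in an intron of 10 HSPA8 transcripts and in an exon of none of them. SNORD14E had 361, 426 and 322 reads in the wild type libraries and 3, 4 and 6 reads in the shENO1 libraries. Its mean of 292 FPKM in wild type and 3.18 FPKM in shENO1 gave a log2 fold change of -6.15 (SE 0.18, limma adjusted p = 0.000110), the lowest of the 12809 tested genes. Summed over libraries, the ratio of wild type to shENO1 reads per read in genes was 90.4, with an exact 95% interval of 52.6 to 170 that covers counting error only. The ratio of SNORD14E to HSPA8 was 0.745 ± 0.0228 in wild type and 0.0275 ± 0.00660 in shENO1 (SD, n = 3), again without overlap (exact permutation test, two-sided p = 0.1, the smallest possible). Loci shorter than a sequenced fragment have uncertain FPKM, and reads of an intron and of the mature small RNA are not separated in the table. The neighbouring SNORD14C and SNORD14D were at 0 in every library. The loci that overlap other members held few reads: at most 5 per library for AL590385.2 over HSPA6, at most 3 for SNORD63 in HSPA9, and 0 for AL671762.1 over HSPA1B and RF00154 in HSPA9. AC113410.3, in an intron of HSPA4, had 20, 8 and 2 reads in wild type and 0, 0 and 1 read in shENO1 (limma adjusted p = 0.0684, and 0.0219 without wild type replicate 3).

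The other cytosolic members showed no called change. HSPA4, a larger HSP110-type relative that acts as an exchange factor for HSP70, had 12.9, 14.3 and 19.6 FPKM in wild type and 19.0, 18.8 and 18.7 FPKM in shENO1. Wild type replicate 3 lay above all shENO1 libraries and the other two wild type libraries lay below them, so the groups overlapped. The log2 fold change was 0.28 (95% interval -0.08 to 0.64, limma adjusted p = 0.258), and without wild type replicate 3 it was 0.44 (limma adjusted p = 0.0383). HSPA1L, best known from testis, had 0.547, 0.553 and 0.738 FPKM in wild type and 0.429, 0.698 and 0.839 FPKM in shENO1, from 17 to 36 reads per library. HSPA2, also best known from male germ cells, had 0.264, 0.199 and 0.462 FPKM in wild type and 0.200, 0.125 and 0.164 FPKM in shENO1, from 11 to 37 reads. The antisense gene AL049869.3 overlaps HSPA2 and had 7 to 33 reads per library, and without known strand handling reads of the pair cannot be told apart. The groups overlapped for HSPA1L and HSPA2. In a fit without the filter on low values their log2 fold changes were 0.03 (SE 0.15, limma adjusted p = 0.925) and -0.17 (SE 0.09, limma adjusted p = 0.439), and neither passed.

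**Figure D3:**
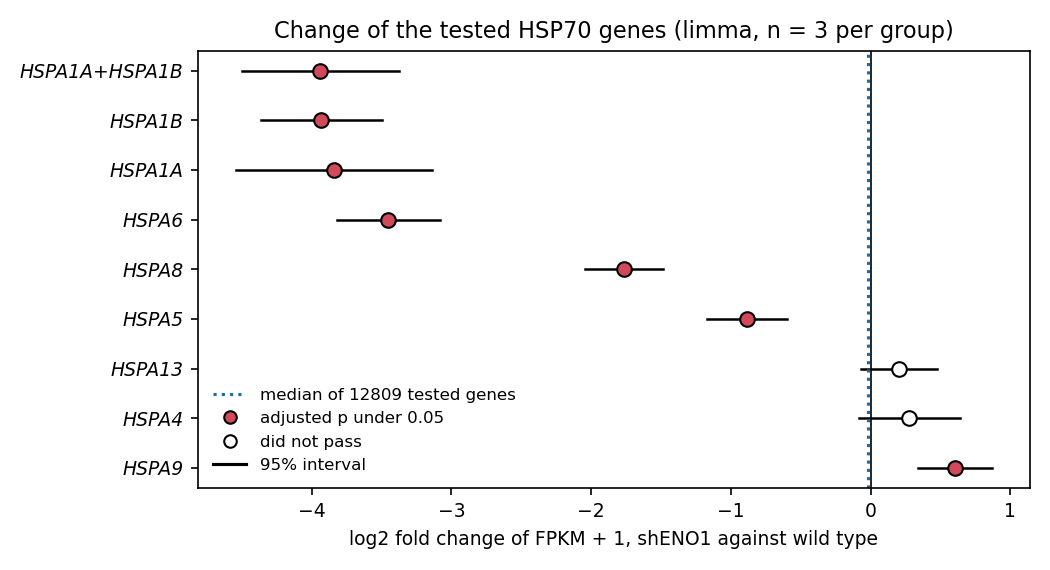
Log2 fold change of FPKM + 1 (shENO1 against wild type) for the 8 tested HSP70 genes and the sum of HSPA1A and HSPA1B, with 95% intervals from limma (n = 3 per group) and the median of the 12809 tested genes as a dotted line. The intervals of HSPA1A, HSPA1B, HSPA6, HSPA8 and HSPA5 lie below 0, that of HSPA9 lies above 0, and those of HSPA4 and HSPA13 include 0.

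In the ER, HSPA5 was lower and HSPA13 did not pass the test. HSPA5 (chr9:125234853-125241330, minus strand), which folds secretory proteins and holds the unfolded protein response sensors in check, had 437, 458 and 473 FPKM in wild type and 233, 237 and 270 FPKM in shENO1. The groups did not overlap. The means of 456 ± 18.1 and 247 ± 19.9 FPKM (SD, n = 3) differed 1.85-fold, with a log2 fold change of -0.88 (SE 0.12, 95% interval -1.17 to -0.60, limma adjusted p = 0.00933). The call was lost without wild type replicate 1 (adjusted p = 0.0506) or wild type replicate 2 (adjusted p = 0.0564), while the log2 fold change stayed between -0.95 and -0.85 whichever library was left out. HSPA13, a shorter relative associated with microsomes, had 16.3, 18.2 and 19.8 FPKM in wild type and 19.0, 21.0 and 23.0 FPKM in shENO1. Its groups overlapped, and its log2 fold change of 0.20 (95% interval -0.06 to 0.47, limma adjusted p = 0.264) did not pass. The ratio of HSPA8 to HSPA5 had a mean of 0.861 in wild type and 0.465 in shENO1, without overlap (exact permutation test, two-sided p = 0.1, the smallest possible).

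HSPA9 was the only tested HSP70 gene called higher. This matrix chaperone, on chromosome 5, pulls precursor proteins through the inner membrane and helps build iron-sulphur clusters. It had 22.2, 22.6 and 21.8 FPKM in wild type and 30.9, 33.1 and 39.4 FPKM in shENO1. Every shENO1 library was higher, and the spread was wider in shENO1. The means of 22.2 ± 0.389 and 34.5 ± 4.41 FPKM (SD, n = 3) differed 1.55-fold, with a log2 fold change of 0.61 (SE 0.11, 95% interval 0.34 to 0.87, limma adjusted p = 0.0189). The call was lost without wild type replicate 1 (adjusted p = 0.0849) or wild type replicate 2 (adjusted p = 0.0801). The share of mitochondrial reads was also higher in every shENO1 library, and its part in this result was not tested. The ratio of HSPA9 to HSPA5 had a mean of 0.0488 in wild type and 0.139 in shENO1, without overlap. That separation follows from HSPA9 being higher and HSPA5 lower in every shENO1 library. The exact two-sided permutation p of 0.1, the smallest possible, thus adds nothing to the results of the 2 genes.

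The summed FPKM of the family was lower in every shENO1 library. The 10 genes summed to 1397, 1508 and 1298 FPKM in wild type and 440, 450 and 516 FPKM in shENO1, means of 1401 ± 105 and 469 ± 41.3 FPKM (SD, n = 3) that differed 2.99-fold. The groups did not overlap (exact permutation test, two-sided p = 0.1, the smallest possible). HSP70 genes took 0.522% ± 0.0342 of the reads in genes in wild type and 0.207% ± 0.0106 in shENO1 (SD, n = 3). HSPA1A and HSPA1B together made up 32.6% ± 3.70 of the summed FPKM in wild type and 6.23% ± 1.33 in shENO1. HSPA5 made up 32.7% ± 3.28 in wild type and 52.7% ± 0.377 in shENO1. HSPA8 made up 28.0% ± 0.0778 in wild type and 24.5% ± 0.823 in shENO1, or 42.9% and 37.2% per length of the longest coding transcript, and HSPA9 made up 1.59% and 7.34% on average.

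**Figure D4:**
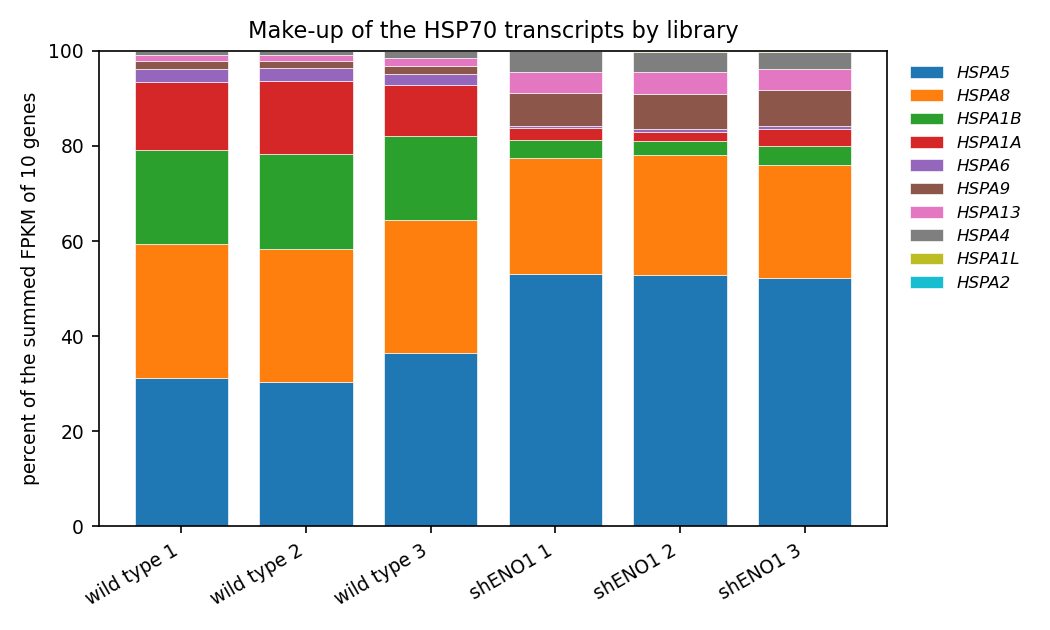
Share of each HSP70 gene in the summed FPKM of the 10 genes, in percent, as stacked bars for the 6 libraries. HSPA1A and HSPA1B together fill 32.6% of the wild type bars on average and 6.23% of the shENO1 bars, and HSPA5 fills 32.7% and 52.7%. Shares are per joined exon length; per length of the longest coding transcript HSPA8 would fill 42.9% and 37.2% in place of 28.0% and 24.5%.

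In FPKM, the order of levels in wild type was HSPA5, HSPA8, HSPA1B, HSPA1A, HSPA6, HSPA9, then HSPA13 and HSPA4, which overlapped, and last HSPA1L and HSPA2. In shENO1 it was HSPA5, HSPA8, HSPA9, HSPA13 and HSPA4, then HSPA1B and HSPA1A, with HSPA6, HSPA1L and HSPA2 below. There HSPA4 overlapped HSPA1B, and HSPA1B overlapped HSPA1A. The order depends on gene length as the table uses it, which is the length of all exons of a gene joined. For HSPA8 this was 4849 bases, against 2463 bases for its longest coding transcript, and for HSPA9 it was 8254 against 4727 bases. Rescaled to the longest coding transcript, HSPA8 had a mean of 771 FPKM in wild type and 226 FPKM in shENO1, which puts it above HSPA5 in wild type. With that rescaling HSPA9 (38.8 FPKM) also stood above HSPA6 (37.1 FPKM) in wild type. HSPA8 then made up 42.9% ± 0.114 of the family sum in wild type and 37.2% ± 1.04 in shENO1, HSPA1A and HSPA1B together 25.4% ± 2.89 and 4.81% ± 1.05, and HSPA5 25.5% ± 2.55 and 40.6% ± 0.276 (SD, n = 3). Ratios of mean FPKM of a gene between groups do not depend on this length.

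The partners of HSP70 were counted by compartment from lists of 73 genes, in 74 rows of the table. Of these rows 70 were tested, of which 4 were called higher, 10 lower and 56 did not pass, with a median log2 fold change of -0.17. That is 10 of 70 called lower, against 6.46% of all tested genes, and 4 of 70 higher, against 7.86%. The lists were chosen with earlier results of these data known, so these shares are a description and not a test. The counts of the single lists below are small and stand against these same shares. Without the filter on low values, the calls of DNAJA1, DNAJB12, DNAJC2, HSPBP1 and HSP90B1 were lost (limma adjusted p = 0.0666 to 0.113).

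Of the 13 cytosolic J-domain partners, 4 fell and 1 rose, with a list median log2 fold change of -0.22. DNAJB1 (HSP40), the main stress-inducible J-domain partner of HSPA1A, had 189, 195 and 132 FPKM in wild type and 15.8, 14.7 and 21.7 FPKM in shENO1. Its groups stood far apart, with a log2 fold change of -3.23 (SE 0.20, limma adjusted p = 0.00172). The other called genes changed less, with log2 fold changes of -0.65 for DNAJA1, -0.64 for DNAJA4, -0.35 for DNAJC2 and 0.55 for DNAJB12 (limma adjusted p = 0.0101 to 0.0499). DNAJA1 and DNAJB12 each lost the call without any of 4 libraries (adjusted p = 0.0721 to 0.134), DNAJC2 without any library but shENO1 replicate 3 (0.0609 to 0.178) and with 4 further settings (0.0508 to 0.126), and DNAJA4 without wild type replicate 1 or 2 (0.0564 to 0.0582). For DNAJA1 these were wild type replicates 1 and 2 and shENO1 replicates 1 and 2, and for DNAJB12 wild type replicates 1 and 2 and shENO1 replicates 1 and 3.

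Of the 7 tested exchange factors, 1 fell and 1 rose, with a list median of 0.14. HSPH1 (HSP105), an inducible HSP110-type exchange factor, had 46.3, 46.9 and 53.2 FPKM in wild type and 17.1, 19.6 and 18.1 FPKM in shENO1. It was lower in every shENO1 library, with a log2 fold change of -1.37 (SE 0.10, limma adjusted p = 0.00287). HSPBP1, which removes ADP from HSP70, rose from 13.5 to 23.0 FPKM with a log2 fold change of 0.71 (limma adjusted p = 0.0364). That call was lost without any library but shENO1 replicate 2 (adjusted p = 0.0584 to 0.130).

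Of the 10 co-chaperones and genes of the relay to HSP90, 2 fell and 0 rose, with a list median of -0.25. HSP90AA1, the inducible cytosolic HSP90, fell from 395 to 202 FPKM (log2 fold change -0.97, limma adjusted p = 0.00798). CHORDC1, an HSP90 co-chaperone, fell from 12.3 to 4.85 FPKM (log2 fold change -1.18, limma adjusted p = 0.00287). Both calls held with any single library left out. The heat shock factor list held HSF1, HSF2, HSF4 and the HSF1-binding HSBP1. Of these 4 genes 0 were called by limma on FPKM with all libraries, and 0 had an unadjusted p under 0.05 there. Limma-voom on recovered reads called 0, with 1 lower at an unadjusted p under 0.05. The replicate block also had 1 lower at that threshold, as did the fits without wild type replicate 3 or shENO1 replicate 2. Without replicate 3 of both groups 2 were lower unadjusted and 1 was called lower, where 2033 of all 12809 tested genes were called lower. HSF1 itself had 24.9, 24.5 and 28.8 FPKM in wild type and 28.7, 23.8 and 23.1 FPKM in shENO1. Its groups overlapped, with a log2 fold change of -0.05 (95% interval -0.33 to 0.24, limma adjusted p = 0.815). HSBP1, a small HSF1-binding protein, had 10.7 FPKM in wild type and 9.91 FPKM in shENO1 (limma adjusted p = 0.678).

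Of the 22 ER partners of HSPA5 and unfolded protein response genes, 2 fell and 0 rose, with a list median of -0.18. Of all tested genes 6.46% were called lower and 7.86% higher. DNAJB9 (ERdj4), a J-domain partner of HSPA5, fell from 10.7 to 6.11 FPKM (log2 fold change -0.72, limma adjusted p = 0.0140). HSP90B1 (GRP94), the HSP90 of the ER, fell from 328 to 223 FPKM (log2 fold change -0.56, limma adjusted p = 0.0314). DNAJB9 lost the call without wild type replicate 1 or 2 (adjusted p = 0.0519 to 0.0667), and HSP90B1 without wild type replicate 1 or 2 or shENO1 replicate 1 or 2 (0.0768 to 0.139). After quantile normalisation HSP90B1 had a log2 fold change of -0.31 and did not pass (limma adjusted p = 0.131).

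Of the 12 tested mitochondrial partners of HSPA9, 2 rose and 1 fell, with a list median of 0.03. TRAP1, the mitochondrial HSP90, had 11.4, 11.0 and 11.8 FPKM in wild type and 19.3, 17.8 and 20.3 FPKM in shENO1, without overlap (log2 fold change 0.70, limma adjusted p = 0.00766). LONP1, the matrix protease, rose from 29.9 to 48.1 FPKM (log2 fold change 0.66, limma adjusted p = 0.0131), and lost the call without wild type replicate 1 or 2 or shENO1 replicate 1 (adjusted p = 0.0562 to 0.0717). HSPE1 (HSP10), the lid of the HSP60 chaperonin, had 94.5, 99.98 and 77.3 FPKM in wild type and 32.9, 36.0 and 44.5 FPKM in shENO1. It was thus lower in every shENO1 library (log2 fold change -1.24, limma adjusted p = 0.00757). Its partner HSPD1 (HSP60) had 231 FPKM in wild type and 172 FPKM in shENO1 and did not pass (limma adjusted p = 0.0712). Of the remaining HSP70-like genes, both rows of HSPA14 overlapped between groups, with 0 called, 0 at an unadjusted p under 0.05 and 0 called by limma-voom. HSPA12A and HSPA12B stayed under the filter, with means of 0.342 and 0.577 FPKM in wild type and 0.455 and 1.12 FPKM in shENO1. Both were higher in every shENO1 library, as were 19.6% of tested genes. Their means rest on few reads. With wild type given first, HSPA12A had counts of 56, 63 and 61 against 98, 77 and 81. HSPA12B had counts of 13, 30 and 37 against 66, 52 and 49. In the fit without the filter neither passed (limma adjusted p = 0.598 and 0.328).

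**Figure D5:**
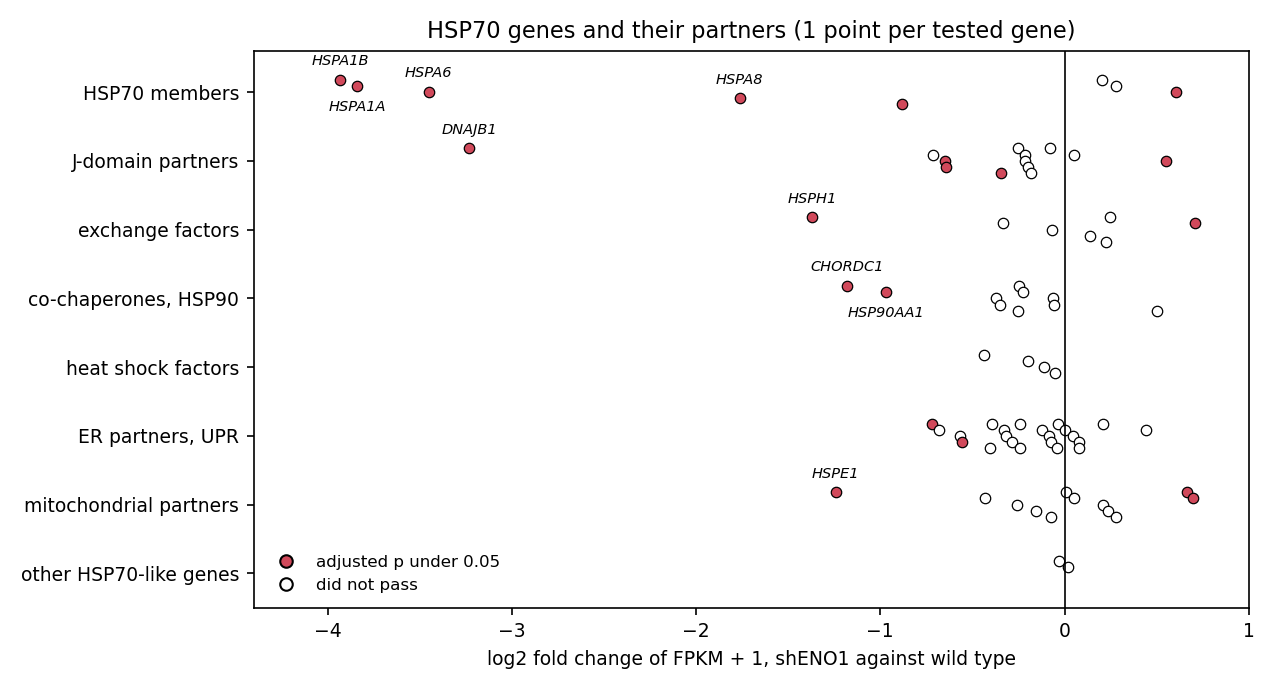
Log2 fold change of FPKM + 1 (shENO1 against wild type) of every tested HSP70 gene and partner, 1 point per gene, in rows by list, filled where the limma adjusted p was under 0.05. DNAJB1 at -3.23 lies nearest to HSPA1A, HSPA1B and HSPA6, and most partners lie near 0.

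The genes whose pattern lay closest to the summed HSPA1A and HSPA1B level were found by the root mean square difference of centred log2(FPKM + 1) over the 6 libraries, among 7051 named genes averaging 5 FPKM or more, with the HSP70 members left out. Of the members, HSPA6 lay at 0.33 from the sum and HSPA8 at 1.11. The closest were DNAJB1 (0.37), MIR3153 (0.48), DUSP1 (0.70), ENO1 (0.74) and RNU6-548P (1.04). DUSP1, a phosphatase that inactivates MAP kinases, had a mean of 43.9 FPKM in wild type and 5.53 FPKM in shENO1. MIR3153 is a locus of 82 bases that overlaps CKS2, and RNU6-548P is a locus of 115 bases that overlaps SLC1A4 and rests on 5 to 27 reads per library, so reads of the larger genes may be counted in them. Closest to HSPA8 were RNU6-548P (0.11), ZFAND2A (0.11), CLK1 (0.21), DUSP10 (0.22) and MALAT1 (0.22). ZFAND2A, an arsenite-inducible zinc finger gene, had a mean of 12.9 FPKM in wild type and 3.37 FPKM in shENO1. By their bounds DNAJB1 (with TECR and MIR639), DUSP1, ENO1, CLK1, ZFAND2A and MALAT1 also overlap other loci, and DUSP10 overlaps none. Strand handling is not known, and the share of reads from those loci was not tested. These likenesses are descriptions over 6 libraries that share the group difference.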

How the data were processed

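Total RNA of U937 cells was sequenced in 3 wild type and 3 shENO1 libraries. The authors deposited 1 table of FPKM values per gene, made with STAR, Cufflinks and Cuffnorm on GRCh38, per the submitters' processing notes; versions and strand handling are not given in the sources used here. Every one of the 58735 gene IDs matched GENCODE 29. FPKM times gene length, divided by the smallest such product above 0 in the library (taken as 1 read), gave whole reads for 100% of values above 0 (tolerance 0.001), which were used only for depth, read numbers and limma-voom. Genes whose mean over the libraries reached 1 FPKM were fitted with limma 3.58.1 in R 4.3.3 (eBayes with trend) on log2(FPKM + 1), without covariates. Ratios and sums were compared with exact permutation tests. The fit was also run on simulated reads with the same relative spread set for all genes and no shift of replicate 3. That run thus does not show how the fit behaves on these data. Motifs and shared windows were searched with Python 3.11.15. The main fit did not pair libraries by replicate number, because such a pairing is not stated. The HSP70 members and the partner and marker lists were chosen with earlier results of these data known. All members, the largest called partners of each list (up to 4), the nearest 5 genes by pattern and genes overlapping a member were named by rule. HSPA7, DNAJC2 and HSPD1 were added after their values were seen. Alternatives covered the pseudocount, filter, trend, scaling, left-out libraries, replicate block and limma-voom.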

Additional observations from a re-analysis of the deposited data

How the results depend on the processing

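HSPA1A, HSPA1B, HSPA6 and HSPA8 were called lower under 16 of 17 alternatives each, the exception being the replicate block, and the summed HSPA1A and HSPA1B log2 fold change ranged from -4.30 to -3.75. Same-numbered libraries had residual correlations of -0.08, -0.33 and -0.46, and the main fit did not pair libraries by number. So few correlations cannot settle whether the libraries were paired. With the replicate block the summed log2 fold change stayed at -3.94 (limma adjusted p = 0.0713), and limma called 0 members lower, 0 members higher, 0 partners lower, 0 partners higher, 1 gene of all lower and 0 higher. At an unadjusted p under 0.05 that fit had 5 members lower and 1 higher, and 13 partners lower and 5 higher. Of all genes it had 1524 lower and 1557 higher at that threshold. By adjusted p, limma-voom on recovered reads called 5 members lower and 1 higher, and 13 partners lower and 5 higher. Of all tested genes limma-voom called 1037 lower and 1298 higher. Leaving out each library in turn gave 4 to 5 members lower, 0 to 2 higher, 5 to 12 partners lower, 1 to 4 higher, 134 to 775 genes of all lower and 147 to 914 higher, where 828 and 1007 were called with all libraries. It moved the summed HSPA1A and HSPA1B log2 fold change between -4.15 and -3.75 and that of the family sum between -1.65 and -1.53. Without the filter on low values 2 partners were higher, and 381 genes of all lower and 445 higher. With the same summed FPKM of nuclear genes in each library, 501 genes were lower and 1396 higher and the median of all genes moved from -0.02 to 0.08, while 5 members stayed lower and 1 higher. Leaving out replicate 3 of both groups, an alternative chosen after seeing the data, gave 2 members higher (HSPA9 and HSPA4), 23 partners lower, and 2033 genes of all lower and 1649 higher. The causes were not tested. The count tests of edgeR and DESeq2 were not run, and limma-voom was the only fit on recovered reads. HSPA1L and HSPA2 rest on at most 37 reads per library, which limits what can be said of them.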
